A study of Mus musculus with 6 samples.

Results

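Wnt genes were examined in colon RNA of mice without functional Slc9a3, whose product NHE3 exchanges sodium for protons at the luminal surface of the gut. The set held the Wnt, Frizzled (Fzd), secreted Frizzled-related (Sfrp), Dickkopf (Dkk) and R-spondin (Rspo) genes together with Ctnnb1, Tcf7, Tcf7l2, Lef1, Apc, Lrp5, Lrp6, Porcn and Wif1. It comprised 49 genes, read by 97 probe sets that name 1 gene alone, of 18194 genes so named on the array. The probe set with the highest mean signal over the 6 arrays stood for each gene, and Tcf7 was not analysed here. RNA came from dissected colon of mice 6 to 8 weeks old and was read on Affymetrix MOE430 2.0 arrays, 3 for wild-type mice (NHE3+/+) and 3 for mice deficient in NHE3 (NHE3-/-), which were littermates. The labels name no treatment. They leave unstated how Slc9a3 is disrupted, whether its loss is confined to a cell type, the animals' sex and how many animals contributed to an array. The p-values therefore reflect only how far these samples varied, which may be technical.

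Wnt proteins are secreted lipid-modified ligands that bind Frizzled receptors together with the co-receptors Lrp5 or Lrp6. Binding stops the destruction complex, which contains Apc, from degrading beta-catenin, and beta-catenin then acts in the nucleus with factors such as Tcf7l2 and Lef1. In the intestine this pathway maintains the dividing cells of the crypt base, R-spondins strengthen it, and Sfrp, Dkk and Wif1 proteins restrain it outside the cell.

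The genes that passed the test are 3 Frizzled receptors, and the sequences just upstream of their start sites are shown because these are the members on which the results turn. They are the 250 bases before the RefSeq start site of assembly GRCm38.p6, written 5′ to 3′ on the strand of the gene. Fzd4 lies on the plus strand (chr7:89404116-89404365), Fzd5 on the minus strand (chr1:64737751-64738000) and Fzd7 on the plus strand (chr1:59481897-59482146). Capitals mark GGGCGG or CCGCCC, the GC box that Sp factors can bind, and CCAAT or ATTGG, the CCAAT box.
Fzd4: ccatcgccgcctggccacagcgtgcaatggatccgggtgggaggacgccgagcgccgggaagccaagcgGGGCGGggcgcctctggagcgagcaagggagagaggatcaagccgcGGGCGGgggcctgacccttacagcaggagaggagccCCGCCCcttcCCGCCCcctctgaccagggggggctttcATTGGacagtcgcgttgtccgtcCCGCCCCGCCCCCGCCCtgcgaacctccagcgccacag
Fzd5: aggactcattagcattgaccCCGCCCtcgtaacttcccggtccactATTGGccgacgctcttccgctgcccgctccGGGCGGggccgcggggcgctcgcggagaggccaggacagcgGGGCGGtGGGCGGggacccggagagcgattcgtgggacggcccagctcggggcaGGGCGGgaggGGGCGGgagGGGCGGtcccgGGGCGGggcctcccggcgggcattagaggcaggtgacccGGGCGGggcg
Fzd7: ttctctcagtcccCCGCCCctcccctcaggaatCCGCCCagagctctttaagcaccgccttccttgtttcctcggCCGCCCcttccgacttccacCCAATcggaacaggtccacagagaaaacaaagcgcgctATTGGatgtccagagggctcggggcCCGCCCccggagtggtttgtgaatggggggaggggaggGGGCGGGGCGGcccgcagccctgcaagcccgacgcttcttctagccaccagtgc
The 3 windows had a G+C content of 72.8%, 76.4% and 65.2% for Fzd4, Fzd5 and Fzd7, against a median of 52.4% over 32851 RefSeq windows of this length, 66.8% over the members' windows and 74.6% over the 6 windows of Frizzled genes. The GC box, searched on both strands with overlapping matches counted, occurred 7, 9 and 6 times in Fzd4, Fzd5 and Fzd7. It was present in 32.7% of all windows, in 28 of the 39 windows that RefSeq gave for 31 of the 49 members and in 5 of the 6 Frizzled windows. The CCAAT box, a motif chosen after these sequences had been seen, occurred 1, 1 and 2 times and was present in 33.8% of all windows, 28.2% of the members' and 3 of the 6 Frizzled windows. ATCAAAG, the core that Tcf and Lef factors bind, and its complement CTTTGAT were not among these letters and occurred in 3.21% of all windows.

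Before the results, the arrays themselves were compared with their labels. The brighter Slc9a3 probe set had a signal of 6075 ± 531 in NHE3+/+ and 4634 ± 1196 in NHE3-/- (SD, n = 3 each), and the groups overlapped. The other Slc9a3 probe set went the other way, at 266.1 ± 137 and 449 ± 173 (log2 fold change 0.76, SE 0.39, adjusted p = 0.230), also with overlap. Xist, which coats the silenced X chromosome in females, read 2639 and 1929 on NHE3-/- arrays 1 and 2, 12.3 on NHE3-/- array 3 and at most 8 on NHE3+/+ arrays. Eif2s3y, a gene of the Y chromosome, was read on all 6 arrays, at 1434 to 1809 in NHE3+/+ and 932.6 to 1355 in NHE3-/-, those with high Xist included. The part of this difference in the results was not tested beyond a fit with the Xist signal as a covariate and a fit with NHE3-/- array 3 alone. Because Xist was high on NHE3-/- arrays 1 and 2 alone, both fits rest mainly on NHE3-/- array 3 against NHE3+/+. On the second principal component, with 15.9% of the variance, NHE3-/- array 3 scored -37.7 and NHE3-/- arrays 1 and 2 scored 24.6 and 24.9. Epithelial markers were present throughout (summed signal of 11 genes 237222 to 273247 in NHE3+/+ and 258782 to 305874 in NHE3-/-). Markers of other layers of a dissected colon had far lower signals, with several near or below the array medians of 97.8 to 121.4. The summed signal of 10 smooth muscle genes was 1924 to 2359 in NHE3+/+ and 1541 to 3004 in NHE3-/-, with single genes from Lmod1, at most 15.1 on any array, to Acta2, at 779.5 to 1324. That of 16 genes of fibroblasts and subepithelial stroma was 4168 to 5129 and 3892 to 4682, with single genes from Foxl1, a marker of Wnt-producing cells beneath the epithelium, at 4.5 to 6.7, to Col3a1, a fibrillar collagen, at 1366 to 2254. Of 27022 probe sets tested, 4.97% were higher and 6.24% lower in NHE3-/- at a limma adjusted p under 0.05, 11.2% in all. With the arrays' medians set equal 1596 were higher and 739 lower in place of 1342 and 1685, and with quantile normalization 1337 and 1333. These scalings moved the median log2 fold change over the table from -0.10 to 0.01 and to -0.02, respectively.

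Of the 49 members, 28 were bright enough to be tested, 3 were lower in NHE3-/- colon (Fzd4, Fzd5 and Fzd7) and 0 were higher by limma. That is 10.7% of those tested, next to 11.2% of all probe sets. At an unadjusted p under 0.05, 6 were lower and 1, Wnt7a, was higher. Over all probe sets these shares were 17.4% lower and 10.2% higher. Counting every tested probe set of the members, 49 in number, 7 were lower and 5 higher at that unadjusted p, and 6.12% were called. The 21 of them that did not stand for their gene had 0 called. At that unadjusted p, 1 of these was lower, of Fzd8, and 4 were higher, of Ctnnb1, Tcf7l2 and Apc. The median log2 fold change of the tested members was -0.11, next to -0.10 for all probe sets. Values for single genes are log2 ratios of NHE3-/- over NHE3+/+ on the scale log2(signal + 31.4), which understates the change of dim genes, each with limma's standard error (SE). In whole tissue, fewer cells of a type and less RNA per cell cannot be told apart.

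**Figure D1:**
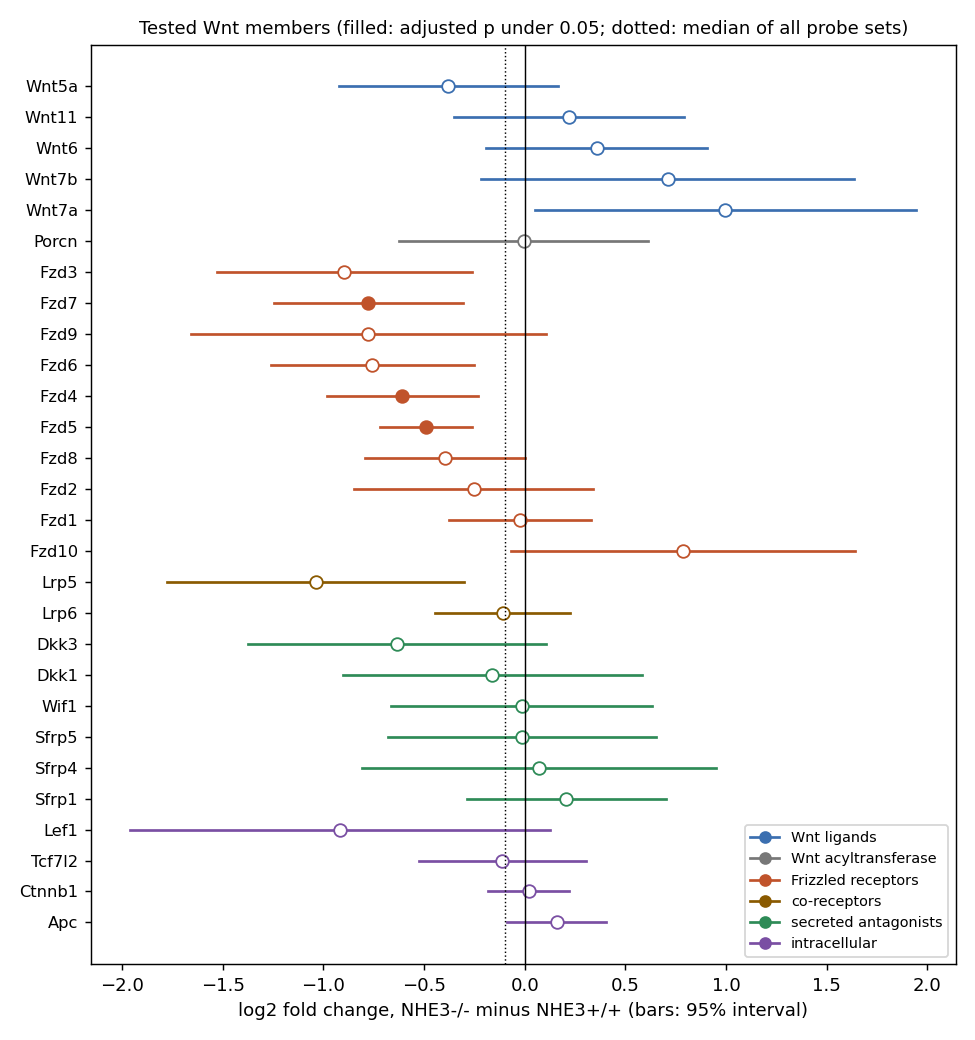
Log2 fold change (NHE3-/- minus NHE3+/+, horizontal axis) of the 28 tested members, coloured by role, with limma's 95% intervals as bars. Filled points are the 3 genes past an adjusted p of 0.05, all Frizzled receptors, and the dotted line is the median of all probe sets at -0.10.

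The Frizzled genes encode the membrane receptors to which Wnt proteins bind, and all 10 on the array were tested. Their median log2 fold change was -0.55, and 9 of 10 values were below 0, next to 59.9% of all probe sets. Over all 18 tested Frizzled probe sets, 14 (77.8%) were below 0, at a median of -0.42. In 8 of the 18, all NHE3-/- arrays lay below all NHE3+/+ arrays. With medians set equal and with quantile normalization 8 of 10 were below 0, at medians of -0.43 and -0.50, where 49.1% and 52.1% of all probe sets were. For 6 of them, Fzd3, Fzd4, Fzd5, Fzd6, Fzd7 and Fzd8, all NHE3-/- arrays lay below all NHE3+/+ arrays, next to 20.1% of all probe sets. Averaged over the 10 genes, the deviation from each gene's mean was 0.18, 0.19 and 0.26 log2 units on NHE3+/+ arrays 1, 2 and 3. It was -0.06, -0.42 and -0.15 on NHE3-/- arrays 1, 2 and 3. Array 2 of the NHE3-/- group was therefore the lowest for the family, and array 1 of that group the nearest to wild type.

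**Figure D2:**
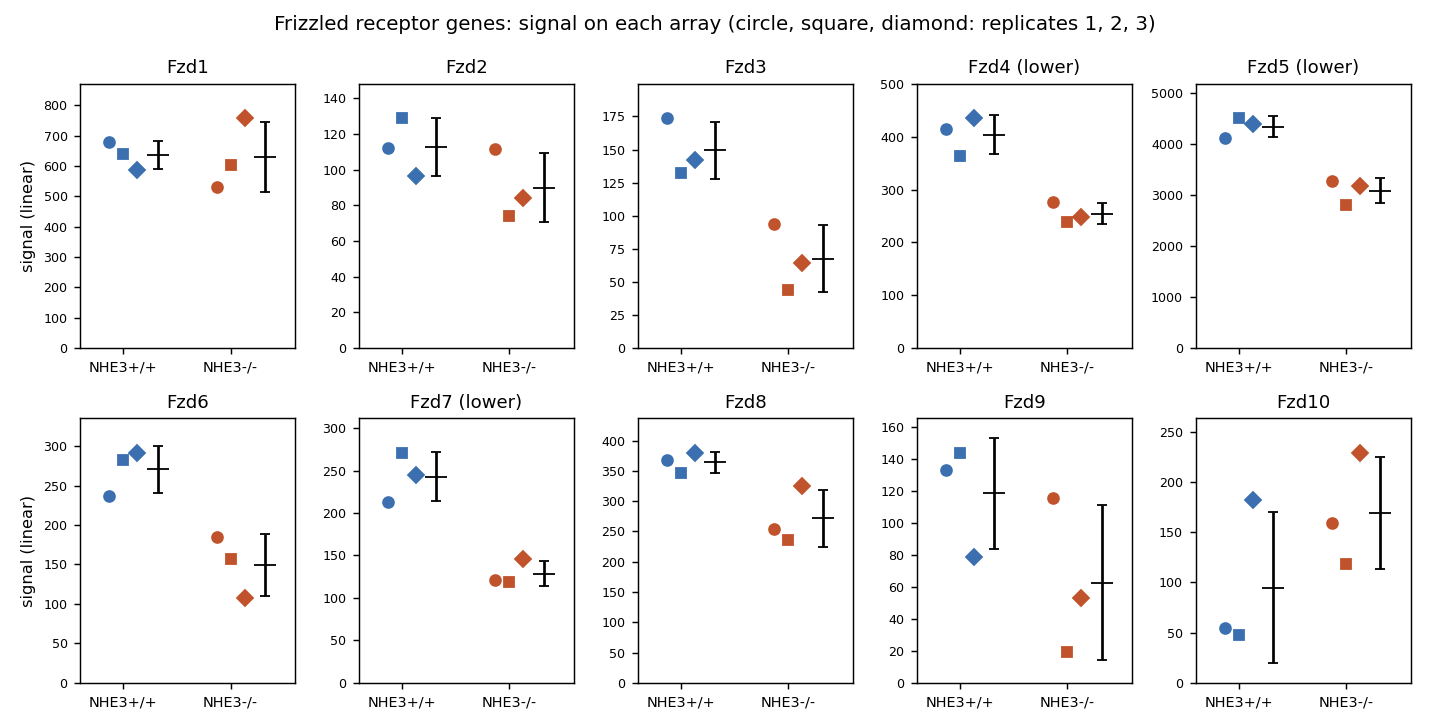
Linear signal (vertical axis, own scale from 0 in each panel) of the 10 Frizzled genes on the NHE3+/+ and NHE3-/- arrays. Bars show the mean and SD of 3 arrays, and for Fzd3 to Fzd8 the groups do not overlap, while Fzd1 has means of 636 and 631.

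Fzd5, a receptor of the intestinal epithelium known for the maturation of Paneth cells in the small intestine, had the smallest adjusted p among the members. Its signals were 4115, 4499.5 and 4389 on NHE3+/+ arrays and 3260, 2806 and 3181 on NHE3-/- arrays. The groups were well apart, with means of 4334 ± 198 and 3082.5 ± 242 (SD, n = 3 each). It fell by 0.49 on the log2 scale (SE 0.10, adjusted p = 0.0131). The other Fzd5 probe set, with means of 275.7 and 195.1, gave -0.44 (SE 0.22, adjusted p = 0.232). The Fzd5 call was lost without NHE3+/+ array 2 (-0.46, adjusted p = 0.0544), with medians set equal (-0.37, adjusted p = 0.115), with Xist as a covariate (-0.45, adjusted p = 0.108), with NHE3-/- array 3 alone (-0.44, adjusted p = 0.123) and with no mean-variance trend (adjusted p = 0.0871). Its log2 fold change stayed between -0.56 and -0.37 under the 16 alternatives.

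Fzd7, a receptor that stem cells of the crypt base use for Wnt signals, was read at 213.3, 270.8 and 244.5 on NHE3+/+ arrays and at 120.8, 119.2 and 145.5 on NHE3-/- arrays. Every NHE3-/- array lay below every NHE3+/+ array. It fell by 0.78 (SE 0.21, adjusted p = 0.0396). Its other probe set read at most 16.5 on any array and was not tested. Fzd4, which besides Wnt proteins binds Norrin in blood vessels, was read at 414.8, 362.6 and 435.2 on NHE3+/+ arrays and at 276.9, 238.5 and 247.4 on NHE3-/- arrays. These groups did not overlap either. It fell by 0.61 (SE 0.17, adjusted p = 0.0438). A further tested probe set of Fzd4 gave 0.01 (SE 0.25, adjusted p = 0.987), so the probe sets of this gene disagree, and the other read at most 74.1 and was not tested.

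The calls of Fzd4 and Fzd7 sat close to the threshold and were lost without any 1 of the 6 arrays. Without NHE3+/+ arrays 1, 2 and 3, Fzd4 had log2 fold changes of -0.59, -0.68 and -0.56, and without NHE3-/- arrays 1, 2 and 3 -0.66, -0.57 and -0.59. For Fzd7 these were -0.86, -0.70 and -0.77, and -0.74, -0.74 and -0.85. With NHE3-/- array 3 alone the values were -0.64 for Fzd4 (adjusted p = 0.174) and -0.63 for Fzd7 (adjusted p = 0.261). Both calls were also lost with medians set equal, with quantile normalization (-0.44 and -0.62), with no filter, with the replicate block and with the Xist covariate, and that of Fzd4 with no mean-variance trend. Over the 16 alternatives the adjusted p ran from 0.0328 to 0.174 for Fzd4 and from 0.0287 to 0.263 for Fzd7.

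**Figure D3:**
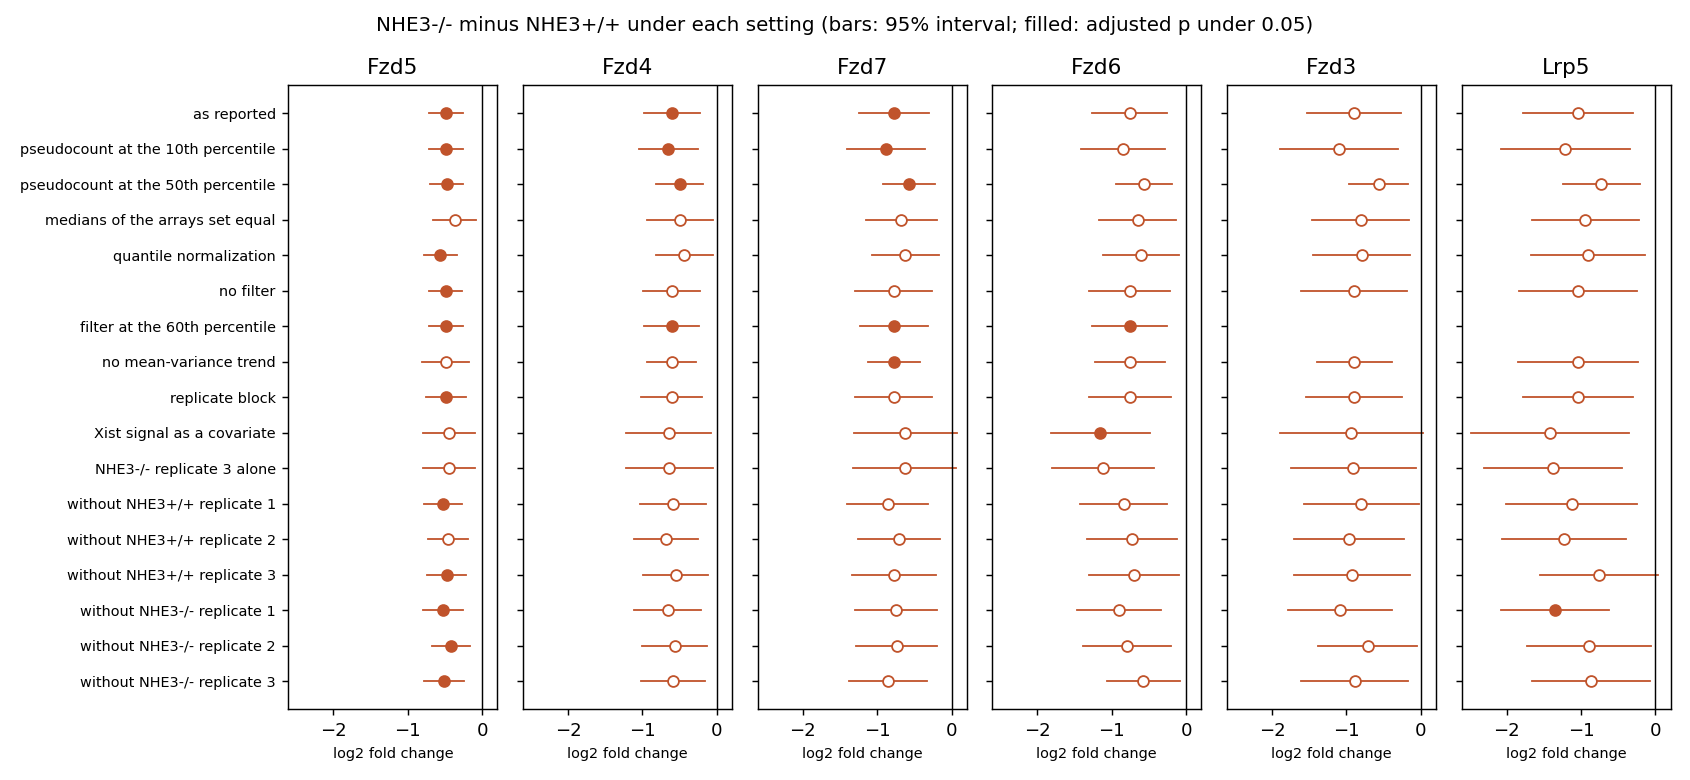
Log2 fold change (horizontal axis, limma's 95% interval as bar) of 6 genes under the reported setting and 16 alternatives, with filled points for an adjusted p under 0.05. All values lie below 0, Fzd3 and Lrp5 have none with the filter at the 60th percentile, and Fzd4 and Fzd7 are not filled when any 1 array is left out.

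Just outside the threshold lay 3 more receptor genes. Fzd6, known for planar cell polarity in skin, had signals of 236.8, 283 and 291.4 on NHE3+/+ arrays and 185, 157.1 and 106.9 on NHE3-/- arrays, which gave -0.76 (SE 0.23, adjusted p = 0.0576). The groups did not overlap. Other tested Fzd6 probe sets gave -0.72 (SE 0.39) and 0.60 (SE 0.46). Fzd3, known for axon guidance, had 173.7, 132.3 and 142.1 against 94.1, 43.6 and 64.6, which gave -0.90 (SE 0.29, adjusted p = 0.0703). Its other tested probe sets gave -0.33 (SE 0.35) and -0.21 (SE 0.34), in the same direction and smaller. Fzd6 passed with a stricter filter (adjusted p = 0.0444). It also passed with Xist as a covariate (-1.15), a fit that rests mainly on NHE3-/- array 3, its lowest. Fzd3 passed under none of its 15 alternatives.

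The remaining Frizzled genes did not pass. Fzd8 read 367.2, 345.6 and 379.6 on NHE3+/+ arrays and 254.1, 235.5 and 325 on NHE3-/- arrays, without overlap (log2 fold change -0.40, SE 0.18, adjusted p = 0.185). Its other probe set gave -0.65 (SE 0.29). Fzd9 had -0.78 (SE 0.40), with NHE3-/- array 1 at 115.6 among the wild-type values and array 2 at 19.5. Without NHE3-/- array 2 its value was -0.40, and without NHE3-/- array 1 it was -1.16. Fzd2 had -0.25 (SE 0.27). Fzd1 had -0.02, with a 95% interval from -0.37 to 0.33, and its other probe set gave 0.03 (SE 0.28). Fzd10 was the 1 Frizzled gene with a value above 0 (0.79, SE 0.39, adjusted p = 0.218). Its NHE3+/+ arrays ranged from 47.8 to 182.1 and overlapped the NHE3-/- range of 118.8 to 229.1. Without NHE3+/+ array 2 its value was 0.53, and without NHE3+/+ array 3 it was 1.24.

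The co-receptors Lrp5 and Lrp6 bind Wnt together with Frizzled. Lrp5 was read at 194.8, 165.4 and 346.8 on NHE3+/+ arrays and at 161.1, 70.8 and 67.4 on NHE3-/- arrays. The highest NHE3-/- array lay just below the lowest NHE3+/+ array. Its log2 fold change was -1.04 (SE 0.33, adjusted p = 0.0709), and it passed without NHE3-/- array 1 (-1.35, adjusted p = 0.0356). Lrp6 had means of 1544 ± 107 and 1446 ± 290 (SD, n = 3 each). Its log2 fold change was -0.11, with a 95% interval from -0.45 to 0.22. Another Lrp6 probe set gave -0.19 (SE 0.22).

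Of the 19 Wnt ligand genes, 5 were tested and 0 passed by limma, next to 11.2% of all probe sets. Wnt7a was read at 145.3, 70.8 and 37.3 on NHE3+/+ arrays and at 223.8, 85.4 and 299.4 on NHE3-/- arrays. The spread within each group was wide and the groups overlapped. Its log2 fold change was 1.00 (SE 0.43, unadjusted p = 0.0408, adjusted p = 0.162 from the limma fit over all probe sets). Wnt7b had 0.71 (SE 0.42, adjusted p = 0.303), Wnt6 0.36 (SE 0.25, adjusted p = 0.384) and Wnt11 0.22 (SE 0.26, adjusted p = 0.627). Single arrays moved all 3: leaving out 1 array gave 0.32 (without NHE3+/+ array 1) to 1.14 (without NHE3+/+ array 2) for Wnt7b, 0.16 to 0.56 (without NHE3-/- array 3 and 1) for Wnt6, and 0.10 to 0.35 (without NHE3-/- array 1 and 3) for Wnt11. Wnt5a, a ligand of the mesenchyme that mostly acts without beta-catenin, had 189.4, 148.7 and 149.5 against 151.6, 100.9 and 103.6 (log2 fold change -0.38, SE 0.25, adjusted p = 0.349). Its second tested probe set gave -0.27 (SE 0.33).

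The other 14 ligand genes had a mean log2 signal below the filter and were not tested: Wnt1, Wnt2, Wnt2b, Wnt3, Wnt3a, Wnt4, Wnt5b, Wnt8a, Wnt8b, Wnt9a, Wnt9b, Wnt10a, Wnt10b and Wnt16. The filter corresponds to a signal of about 60.2 if it were equal on all arrays. Among these 14 the highest value on any array was 132.7, for Wnt4. Wnt3, the ligand made by Paneth cells of the small intestine, read 45 on NHE3+/+ array 2 and at most 3 on the other arrays. Wnt2b, a ligand of the stroma, read between 5.7 and 48.2. Wnt3a, chosen for mention after its values were seen, lay at 19.6, 22 and 54.5 in NHE3+/+ and 91.8, 100.4 and 103.5 in NHE3-/-. Wnt8b also lay higher on all NHE3-/- arrays and Wnt5b lower on all, while the other 11 overlapped. Of all probe sets tested, 12.2% lay higher on all NHE3-/- arrays and 20.1% lower on all. Further Wnt8b probe sets overlapped, and that of Wnt5b also lay lower. The dimmer Wnt9b probe set read 4.1, 6.6 and 5.2 on NHE3+/+ arrays and 60.7, 79.8 and 36.6 on NHE3-/- arrays. Of all values on an array, 22.4% to 26.0% were under the pseudocount of 31.4, and the array medians were 97.8 to 121.4, so the NHE3-/- values of Wnt3a lay near the middle of the arrays. Porcn, the enzyme that adds the lipid to Wnt proteins, had -0.00 on the log2 scale (SE 0.28, adjusted p = 0.994) and a 95% interval from -0.62 to 0.61.

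The R-spondins, secreted proteins that bind Lgr receptors and keep Frizzled receptors at the cell surface, were all below the filter. Rspo1 read between 4.8 and 7.7, Rspo2 between 3.1 and 86.5, Rspo3 between 5.2 and 68, and Rspo4 between 7.1 and 64.5. All 4 overlapped between genotypes. No test was made at these signals, which do not show that the genes were silent.

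Of the 9 secreted antagonists, 6 were tested and 0 passed by limma, with 0 at an unadjusted p under 0.05. Over all probe sets 11.2% passed, and 17.4% were lower and 10.2% higher at that unadjusted p. With 6 genes, a count of 0 says little about the group. Dkk3, a divergent Dickkopf protein, was read at 157.4, 155.3 and 72.8 on NHE3+/+ arrays and at 85.7, 81.8 and 42.5 on NHE3-/- arrays, which gave -0.64 (SE 0.34, adjusted p = 0.248). The groups overlapped through NHE3+/+ array 3, and without NHE3-/- array 3 the value was -0.42. Dkk1, which blocks Lrp5 and Lrp6, had -0.16 (SE 0.34). The Sfrp proteins carry a Frizzled-like domain that takes up Wnt. Sfrp1 had 0.21 (SE 0.22), Sfrp4 0.07 (SE 0.40) and Sfrp5 -0.01 (SE 0.30). The other tested Sfrp1 probe sets gave -0.44 (SE 0.30), -0.26 (SE 0.28) and 0.22 (SE 0.32), so this gene has no direction here. Wif1 had -0.01 (SE 0.29). The 95% intervals of these 6 genes together span -1.37 to 0.95. Dkk2, Dkk4 and Sfrp2 read no more than 64.9 on any array and were not tested.

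Inside the cell, 0 of the 4 tested genes passed, next to 11.2% of all probe sets. Ctnnb1, which encodes beta-catenin, was read at 25221, 27527 and 24555 on NHE3+/+ arrays and at 25486, 26194 and 26625 on NHE3-/- arrays. The groups overlapped, and the log2 fold change was 0.02 (SE 0.09), with a 95% interval from -0.18 to 0.22. Its further probe sets gave 0.30 (SE 0.10, adjusted p = 0.0888) and 0.40 (SE 0.14, adjusted p = 0.0871), both above 0 and not past the threshold. Apc had 1505, 1384 and 1542 against 1705, 1556 and 1696, so all NHE3-/- arrays lay above all NHE3+/+ arrays by a small margin (log2 fold change 0.16, SE 0.11, adjusted p = 0.388). Its further probe sets gave 0.07 (SE 0.11), 0.43 (SE 0.18, adjusted p = 0.156) and -0.30 (SE 0.35), so they differ in sign. Tcf7l2, the main beta-catenin partner of the gut epithelium, had 987, 1136 and 1799 against 1171, 1149 and 1186.5 (log2 fold change -0.11, SE 0.19, adjusted p = 0.748). NHE3+/+ array 3 stood above the other 5 arrays for this probe set. Of its further probe sets, one gave 0.39 (SE 0.13, adjusted p = 0.0785), and others -0.17 (SE 0.21) and -0.49 (SE 0.25). Lef1 had 58, 243.3 and 52.9 against 18.7, 59.8 and 35.8 (log2 fold change -0.92, SE 0.47, adjusted p = 0.237). NHE3+/+ array 2 carried most of that difference, and without it the value was -0.36. All the other arrays read at most 59.8 for Lef1, below the signal of about 60.2 at the filter, so the gene was tested only through that array.

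The rest of the pathway was described from 4 lists of 96 genes, drawn up with earlier results of these data known. Of 93 genes with a probe set, 72 were tested, 2 were higher and 12 lower in NHE3-/- colon, 19.4% of those tested, next to 11.2% of all probe sets. Their median log2 fold change was -0.19. The lists hold the brightest probe set of each gene, while the 11.2% covers all probe sets tested, dimmer ones included. With the filter at the 60th percentile, 1411 were higher and 1790 lower of 18015 probe sets tested, a larger share. The 2 shares are therefore not strictly alike. Of the 21 below the filter, Ror2, Tle2 and Tnfrsf19 lay lower on all NHE3-/- arrays and Sostdc1 higher on all. The others overlapped, and among all probe sets tested 20.1% lay lower and 12.2% higher on all NHE3-/- arrays. Among 14 tested partners of ligands and receptors, 3 were lower and 0 higher by limma (5 and 1 at an unadjusted p under 0.05). Lgr5, an R-spondin receptor and marker of crypt base stem cells, read 364.5, 328.4 and 278.4 on NHE3+/+ arrays and 111.9, 108.5 and 151 on NHE3-/- arrays, a fall of 1.20 on the log2 scale (SE 0.21, adjusted p = 0.00578). Tpbg, a membrane protein that dampens Wnt signals, fell by 1.00 (SE 0.22, adjusted p = 0.0157), and Celsr1, a cadherin of planar cell polarity, fell by 0.59 (SE 0.14, adjusted p = 0.0203). Znrf3 (-0.49, SE 0.20, adjusted p = 0.142) and Rnf43 (-0.10, SE 0.19), ligases that remove Frizzled receptors from the membrane, did not pass. Wls, which carries Wnt proteins to the cell surface, had -0.05 (SE 0.17). Tpbg lost its call without NHE3+/+ array 3 (-0.80) or NHE3-/- array 3 (-0.87), Celsr1 without NHE3+/+ array 2 (-0.58) or NHE3-/- array 3 (-0.50) and with medians set equal (-0.47), both with no mean-variance trend, and Lgr5 with NHE3-/- array 3 alone (-0.95, adjusted p = 0.0799) and with the Xist covariate (-0.94).

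Among the 6 tested genes of 11 further antagonists, 0 were lower and 0 higher by limma, with 1, Apcdd1, lower at an unadjusted p under 0.05 (-0.80, SE 0.32, adjusted p = 0.128) and named after its value was seen. Frzb, the Sfrp-like protein, read no more than 53.4 on any array. Of 37 tested genes of cytoplasmic and nuclear signalling, 4 were lower and 1 higher, a share of 13.5% near the 11.2% of all probe sets. Dvl1, a Dishevelled protein that relays the signal from Frizzled, fell by 0.58 (SE 0.15, adjusted p = 0.0288), and Frat2, which binds the kinase GSK3, fell by 0.73 (SE 0.16, adjusted p = 0.0156). Of the Groucho co-repressors, Tle3 fell by 0.86 (SE 0.22, adjusted p = 0.0275) and Tle1 by 0.48 (SE 0.14, adjusted p = 0.0486), while Tle4 rose by 0.57 (SE 0.13, adjusted p = 0.0203). Tle2 was not tested and read 112.8, 82.7 and 112.6 on NHE3+/+ arrays and 13, 3.9 and 14.9 on NHE3-/- arrays. Tle4 signals were 1573, 1418 and 1277.5 on NHE3+/+ arrays and 2198, 1828 and 2385 on NHE3-/- arrays. Axin2, a feedback inhibitor and target, had -0.34 (SE 0.20, adjusted p = 0.297). Of these, Tle1 was not called without NHE3+/+ array 1 (-0.43) or 2 (-0.44) or NHE3-/- array 1 (-0.46), 2 (-0.53) or 3 (-0.46), Tle3 without NHE3+/+ array 1 (-0.83), 2 (-0.94) or 3 (-0.82), Tle4 without NHE3+/+ array 2 (0.57) or 3 (0.50) or NHE3-/- array 1 (0.55) or 3 (0.49), Dvl1 without NHE3+/+ array 2 (-0.65) or 3 (-0.43) or NHE3-/- array 1 (-0.50) or 3 (-0.62), and Frat2 without NHE3+/+ array 2 (-0.72) or NHE3-/- array 1 (-0.58). With medians set equal, of these 5 genes only Tle4 kept its call, and with NHE3-/- array 3 alone Tle3 and Tle4 did. Tle3 depended in size on that array, at -1.45 with it alone and -0.57 without it, and had -1.48 with the Xist covariate. With no mean-variance trend all 5 calls were lost, with the Xist covariate those of Tle1, Dvl1 and Frat2, and with quantile normalization, no filter or the replicate block that of Tle1.

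Of 26 measured genes known as intestinal targets of beta-catenin, 22 were tested, 6 were lower and 1 higher, 31.8% of those tested next to 11.2% of all probe sets. Their median was -0.42, next to -0.10. This list too holds the brightest probe set of each gene, while the 11.2% and -0.10 cover all probe sets tested, dimmer ones included. Cd44, an adhesion receptor of crypt cells, read 2191, 1743 and 2221 on NHE3+/+ arrays and 697.9, 809.2 and 517.2 on NHE3-/- arrays. It fell by 1.57 (SE 0.17, adjusted p = 0.000258) and passed under all 16 alternatives, as did Sox4, a transcription factor, which fell by 0.69 (SE 0.12, adjusted p = 0.00443). Sox9, a crypt transcription factor, fell by 1.01 (SE 0.22, adjusted p = 0.0139), Ephb3, a receptor that positions crypt cells, by 0.87 (SE 0.16, adjusted p = 0.00721), and Ccnd1, cyclin D1, by 0.68 (SE 0.15, adjusted p = 0.0165). Lgr5 was the sixth. Mmp7, a matrix protease that activates defensins in Paneth cells, rose by 1.59 (SE 0.45, adjusted p = 0.0466), from 204.8, 29.2 and 237.5 to 481.9, 402.6 and 435.7. Ccnd1 was not called without NHE3+/+ array 3 (-0.56) or NHE3-/- array 1 (-0.66) or 3 (-0.58), Sox9 without NHE3+/+ array 3 (-0.87), and Mmp7 without NHE3-/- array 1 (1.52), 2 (1.64) or 3 (1.59). Without NHE3+/+ array 2, the lowest for Mmp7, its call held at a smaller value (0.90, adjusted p = 0.0275). Ephb3 and Mmp7 were not called with NHE3-/- array 3 alone (-0.82 and 1.58) or with the Xist covariate (-0.80 and 1.62). Ccnd1, Sox9 and Mmp7 lost their calls with no mean-variance trend, Ccnd1 with medians set equal (-0.56), and Mmp7 with the lower pseudocount (1.84) and with no filter.

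**Figure D4:**
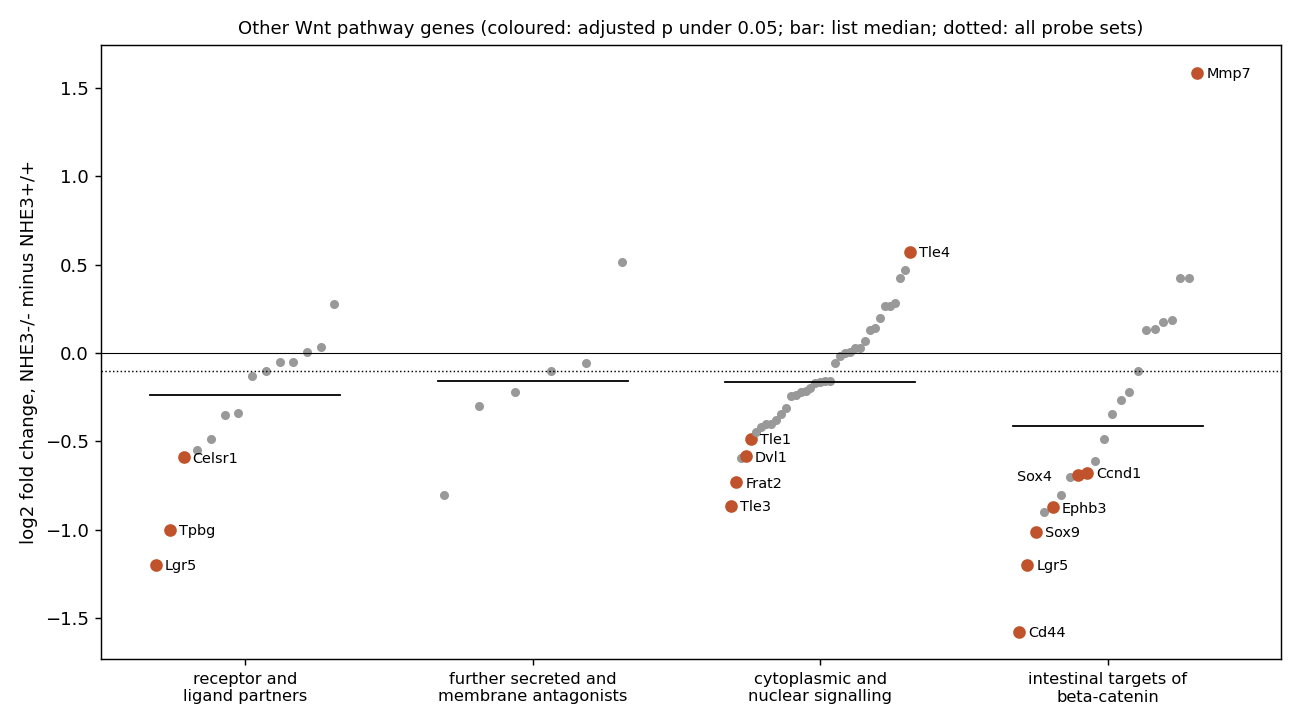
Log2 fold change (NHE3-/- minus NHE3+/+, vertical axis) of the tested genes of 4 pathway lists, 1 point per gene in rising order, with list medians as bars. Labelled points passed an adjusted p of 0.05, of which Tle4 and Mmp7 were higher, and Lgr5 stands in 2 lists.

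Markers of other cell types and of position moved with genotype beside these results. Over all probe sets 11.2% were called, for comparison with each list below, which holds only the brightest probe set of each gene. Of 8 measured markers of dividing cells, 6 were lower and 0 higher by limma (median -0.76, 0 higher and 6 lower at an unadjusted p under 0.05), with summed signals of 13372 to 17417 in NHE3+/+ and 10176 to 12359 in NHE3-/-. Of 9 tested Hox genes that mark position along the colon, Hoxa13, Hoxb13 and Hoxd13 were higher, and the summed signal of the 11 measured was 5811 to 7162 in NHE3+/+ and 11902 to 16436 in NHE3-/-. Hoxb13 alone had means of 3569 and 10395. The values of 4 of the 9 were below 0. At an unadjusted p under 0.05 by limma, 3 were higher and 1, Hoxa5, was lower (-0.55, SE 0.18, adjusted p = 0.0723). Pancreatic genes summed to 1624 to 3173 in NHE3+/+ and 562 to 847 in NHE3-/-, with 2 of 4 tested lower. Of 3 tested adipocyte genes, 2 were lower and 1 higher, at sums of 708 to 2780 and 630 to 808. Of 11 epithelial markers, Vil1 (0.41, SE 0.10, adjusted p = 0.0203) and Elf3 (0.52, SE 0.11, adjusted p = 0.0128) were higher and Krt18 (-0.81, SE 0.11, adjusted p = 0.00106) was lower. The part of these differences in the Frizzled and target values was not tested. Markers of stroma (11 tested), smooth muscle (7), endothelium (4), T cells (8), B and plasma cells (7), macrophages and dendritic cells (7) and enteric neurons and glia (4) had 0 called in either direction by limma. At an unadjusted p under 0.05, 4 markers of B and plasma cells were lower and 1 was higher, and stroma, smooth muscle, endothelium, T cells, macrophages and dendritic cells, and neurons and glia had 0.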

How the data were processed

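The deposited values are intensity values, 1 linear signal per probe set and array, which the submitters' processing notes tie to GCOS, the Affymetrix software. Its version and settings are not given in the sources used here. A scaling by the authors is visible, since the mean after trimming 2% from each end was about 500 on every array. Precision is limited by having 3 arrays a group.

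Signals were taken to log2(signal + 31.4), where 31.4 is the 25th percentile of the table. Of 45101 probe sets, 27022 entered the fit, after removal of 64 array controls and of the dimmest, with a mean log2 value below the 40th percentile. The fit used limma 3.58.1 under R 4.3.3 (functions lmFit and eBayes, prior variance following the mean, genotype alone in the model, two-sided tests). Benjamini-Hochberg adjustment ran over all probe sets tested, at a threshold of 0.05. Tested on simulated data (27022 probe sets, 200 of them changed), the fit recovered 41% of log2 changes of 1 and 84% of log2 changes of 2, with 7 false calls of 132. The real arrays gave 3027 calls. Since the adjustment depends on how many probe sets change, the simulated shares do not carry over to the real arrays. Gene names came from the platform annotation (34958 probe sets with 1 gene, 932 with several, 9211 with none), with symbols updated for the 34754 that matched RefSeq. Every member called was named with its array values, and of other pathway genes the called ones and Axin2, Lgr5, Rnf43, Znrf3, Frzb and Wls. Wnt3a, Wnt9b, Apcdd1, Ror2, Tle2, Tnfrsf19 and Sostdc1 were singled out after their values were seen. The members, lists and tests were chosen with earlier results of these data known. Alternatives changed the pseudocount, scaling, filter, trend, covariates, arrays used and choice of probe set.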

Additional observations from a re-analysis of the deposited data

How the results depend on the processing

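With 3 arrays per genotype, Fzd5 passed in 5 of the 6 fits that left out 1 array, Lrp5 in 1, and Fzd4 and Fzd7 in 0. The number of members lower, 3 as reported, was 0 with medians set equal, 0 with NHE3-/- array 3 alone, and 1 with quantile normalization, with no filter, with no mean-variance trend, with the Xist covariate and with the replicate block, and 4 with the filter at the 60th percentile. It ranged from 0 to 2 when 1 array was left out, and members higher stayed at 0 throughout. Of pathway partners and targets, 12 lower became 6 with medians set equal and 4 with no mean-variance trend, and 2 higher became 1 with the lower pseudocount, with no filter, with the Xist covariate and with NHE3-/- array 3 alone, and 0 with no mean-variance trend. Rises reached 14 lower with no filter, 15 lower and 3 higher when any probe set of a gene could count, and 3 higher with quantile normalization and with the filter at the 60th percentile. Leaving out 1 array gave 7 to 11 lower and 0 to 2 higher. Over all probe sets, 1685 lower became 739 with medians set equal, 558 with no mean-variance trend and 774 to 1385 without 1 array, and 1342 higher became 511 with no mean-variance trend, 767 with NHE3-/- array 3 alone and 839 to 1211 without 1 array. Arrays with the same replicate number had small correlations of deviations (0.0264, -0.0375 and 0.00343 for numbers 1, 2 and 3). Of the arrays, only NHE3-/- array 1 correlated best with its own number. These correlations cannot tell whether the animals or the array runs were paired. The replicate block gave 1156 probe sets higher and 1384 lower. The 3 called members kept their direction under all 16 alternatives, and 10 members without a call changed sign under at least 1. The cause of these changes was not tested.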
